A study of Rattus norvegicus with 16 samples.

Results

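Expression of 8 antioxidant defence genes was examined by bulk RNA-Seq of whole rat kidney. The genes were taken as a list of 8 Ensembl IDs among the 32623 IDs of the deposited tables, and all 8 passed the filter on low counts together with 14628 IDs in all. The list was drawn up by gene function, with earlier results of these data known. It was written for Hmox1, Nqo1, Gclc and Gclm as enzymes induced through Nrf2, for Nfe2l2 as their regulator, and for Cat, Sod1 and Sod2 as catalase and the superoxide dismutases. Only 1 of these pairings could be checked. The study lists TPM values by symbol for genes that differed between its DOCA and control kidneys. In 7 libraries the values of Hmox1 in that list were those of ENSRNOG00000014117, to 2 decimals, and of no other ID. No row of the list was matched to the other 7 IDs. They are therefore called by ID alone and by the set in which they were listed. Which of the remaining 7 symbols belongs to which ID is not asserted here.

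The 16 libraries came from Sprague-Dawley rats in 4 groups of 4. Control rats had a sham operation. The DOCA group had a kidney removed and received deoxycorticosterone acetate, a precursor of mineralocorticoid hormones, with salt in the drinking water, which produces hypertension and kidney damage. The finerenone and spironolactone groups had the same operation, DOCA and salt, and also received finerenone, a nonsteroidal blocker of the mineralocorticoid receptor, or spironolactone, a steroidal one, by daily gavage at doses that differed between the drugs. Each comparison with control thus covers the operation, DOCA and salt together. The labels give an age of 6 weeks for each rat, whereas the study's methods give 6 weeks as the length of treatment. The labels number the libraries within a group and name no animal, so the p-values measure the spread between these libraries. They also give each library a code, whose first number is shared by some libraries of a group. The labels do not say what this number stands for. If it marks a shared unit, the libraries of a group are not all independent.

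Nrf2, the transcription factor encoded by Nfe2l2, is held at a low level by degradation and accumulates under oxidative or electrophilic stress. It then binds antioxidant response elements and induces enzymes that break down heme, reduce quinones and make glutathione. Heme oxygenase-1, encoded by Hmox1, breaks down heme, and it is induced in injured kidney tubules and in macrophages. Catalase and the superoxide dismutases remove hydrogen peroxide and superoxide. Catalase is abundant in the peroxisomes of the proximal tubule.

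Because the list rests on Nrf2, promoter sequences of the listed symbols were searched for the core of the antioxidant response element, TGACNNNGC, on both strands. The RefSeq promoter table of build GRCr8, which runs from 250 bases before to 50 bases after each gene's start, held 7 of the 8 symbols. The symbol without an entry was Hmox1. Sequence outside this window was not searched. The core was found in 3 of these 7, against 12.1% of all 33469 promoters. The promoters with a match, of Gclm, Nfe2l2 and Sod2, were 72%, 68% and 72% G or C, against a median of 51.7% over all promoters. The share was not compared with promoters of like base composition. The stretches around these matches are shown 5′ to 3′ on the gene's strand, with the matched letters in capitals.
Gclm, chr2:213031947-213031987, plus strand: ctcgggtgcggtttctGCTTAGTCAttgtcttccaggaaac
Nfe2l2, chr3:81028950-81028977, minus strand: tgctccgactagccatTGACGCCGCctc
Sod2, chr1:50050179-50050219, minus strand: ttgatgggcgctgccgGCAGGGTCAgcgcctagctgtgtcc
The Gclm match lies 172 bases before the start, and the Sod2 match 35 bases before it, both on the strand opposite to the gene. The Nfe2l2 match lies 38 bases after the start on the gene's strand. The AP-1 motif TGANTCA and the E-box CACGTG were each found in 0 of the 7, against 7.33% and 6.42% of all promoters. These matches describe the letters of the promoters by symbol only, since these symbols could not be tied to the IDs measured below.

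Levels are given as CPM, counts per 1000000 on a TMM scale shared by all 16 libraries, or as TPM, which is also scaled for gene length. The total count was between 7063158 and 8056929 in 15 libraries and 10932887 in spironolactone replicate 4. Values are given for all 16 libraries. Tests covered 14 libraries, without DOCA replicate 4 and spironolactone replicate 4, the libraries that the study's supporting values leave out. An ID was called where the edgeR quasi-likelihood test, with Benjamini-Hochberg adjustment over all 14628 IDs, gave an adjusted p under 0.05 and the log2 fold change was 0.5 or more in size. In bulk tissue, fewer cells of a type and less RNA per cell cannot be told apart. Cell type markers were not analysed here, since their IDs could not be paired with symbols.

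Per length, the 8 IDs covered a wide range in control kidneys. ENSRNOG00000002115 had the highest level at 2076 ± 145 TPM (SD, n = 4) and ranked 38th among all 32623 IDs. It was followed by ENSRNOG00000006302 at 753 ± 350.0 TPM, ENSRNOG00000008364 at 503 ± 38.4 TPM and ENSRNOG00000013409 at 408 ± 168 TPM, 3 neighbours whose ranges over the 4 control libraries overlapped. The next were ENSRNOG00000019048 at 166 ± 13.2 TPM and ENSRNOG00000001548 at 47.2 ± 4.55 TPM. Hmox1 at 7.67 ± 3.12 TPM and ENSRNOG00000012772 at 5.43 ± 0.491 TPM had the lowest levels, and their ranges overlapped. In DOCA kidneys (n = 3), ENSRNOG00000008364 at 318 ± 54.7 TPM stood above ENSRNOG00000006302 at 268 ± 176 TPM, a difference within the spread of these libraries.

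In DOCA kidneys compared with control, 4 of the 8 IDs were called and all 4 fell. Over all 14628 IDs tested, 26.7% were called, and 1655 IDs were called lower. The IDs that fell were ENSRNOG00000006302 and ENSRNOG00000013409, listed as Nrf2-induced enzymes, and ENSRNOG00000008364 and ENSRNOG00000002115, listed as catalase or dismutases. The split depended on the scaling. On log2(TPM + 1) and on log2(TPM + 0.1) 2 IDs were called lower, ENSRNOG00000008364 and ENSRNOG00000002115, and 2 higher, ENSRNOG00000012772 and ENSRNOG00000001548, and with library size alone 2 were called lower and 1 higher. In these settings 41.6%, 45.2% and 34.3% of all IDs were called, in that order. The median log2 fold change over the 8 was -0.81, against 0.02 over all IDs tested. The CPM of 5 of the 8 did not overlap between the tested libraries of both groups, against 43.0% of all IDs. Finerenone kidneys had 3 of the 8 called against DOCA kidneys, with 13.7% called over all IDs, and spironolactone kidneys 0 of the 8, with 0% called over all IDs. The tested libraries did not overlap for 4 of the 8 between finerenone and DOCA, against 32.4% of all IDs, and for 1 of the 8 between spironolactone and DOCA, against 10.6%.

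**Figure D1:**
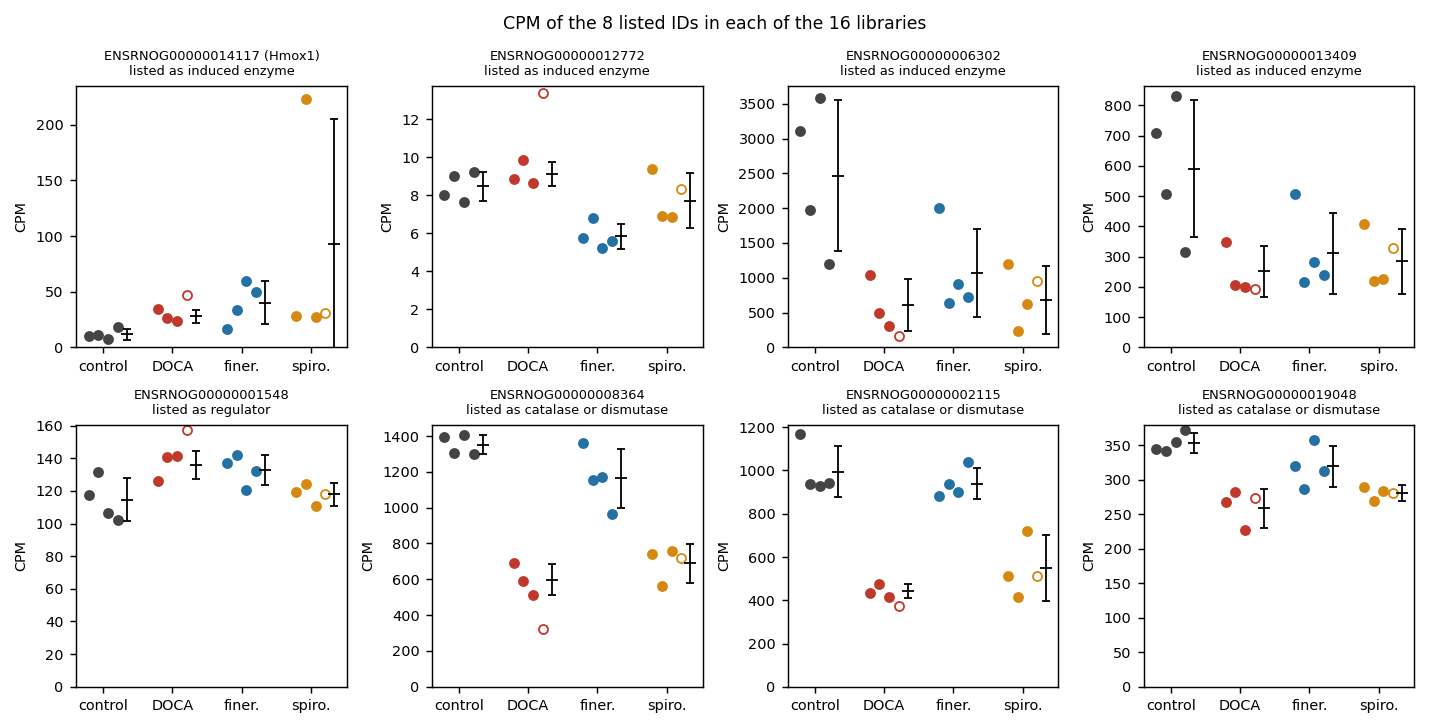
CPM of each ID (vertical axis, from 0) in the 4 groups (horizontal axis). Each point is a library, open points are the 2 libraries left out of the tests, and bars show the mean and SD of the tested libraries; 1 lower bar, for Hmox1 under spironolactone, runs below 0 and is cut at the axis. ENSRNOG00000008364 and ENSRNOG00000002115 lie high in control and finerenone and low in DOCA and spironolactone, and Hmox1 has a single library at 223 CPM.

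Hmox1 was low in control kidneys, and its mean CPM was higher in each DOCA-treated group. It measured 9.91, 11.2, 7.66 and 18.8 CPM in control replicates 1 to 4. The DOCA libraries measured 34.6, 26.4 and 23.4 CPM, and the DOCA library left out of the tests 47.5 CPM. All 4 DOCA values lay above all 4 control values, and in the tested libraries 21.9% of all IDs were likewise higher with no overlap. The log2 fold change was 1.25 ± 0.81 (SE), and it was not called (edgeR adjusted p = 0.261). The study, in contrast, lists Hmox1 among the genes that differed between DOCA and control in its own edgeR analysis. The fit used here shares its estimate of the spread over all groups. Without spironolactone replicate 2 the log2 fold change was still 1.25 and was called (edgeR adjusted p = 0.0383), and with the DOCA and control libraries alone it was 1.27 and called (edgeR adjusted p = 0.00449).

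That library held most of the Hmox1 signal under spironolactone. The spironolactone libraries measured 27.8, 223, 27.3 and 31.3 CPM in replicates 1 to 4, the last one left out of the tests. Replicate 2 held 2000 counts of Hmox1, whereas the other 3 held between 222 and 380. Compared with control, Hmox1 rose by a log2 fold change of 2.97 ± 0.78 (edgeR adjusted p = 0.0137). Without replicate 2 it was 1.22 and was no longer called (edgeR adjusted p = 0.0787), although the 3 other spironolactone libraries still lay above all control libraries. The call was also lost with limma-voom, at 2.33 (limma adjusted p = 0.0986), and with the spironolactone and control libraries alone, at 3.00 (edgeR adjusted p = 0.0726). Compared with DOCA, the log2 fold change was 1.72 ± 0.79 (edgeR adjusted p = 1), and it was -0.028 without replicate 2.

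The finerenone libraries spread over a 3.69-fold range of Hmox1. They measured 16.3, 33.7, 60.0 and 50.1 CPM in replicates 1 to 4, and replicate 1 lay within the control range. The log2 fold change against control was 1.76 ± 0.76 (edgeR adjusted p = 0.223), and without spironolactone replicate 2 it was 1.76 and called (edgeR adjusted p = 0.0276). Against DOCA it was 0.51 ± 0.75, with a 95% confidence interval from -1.16 to 2.18 (edgeR adjusted p = 0.68). On log2(TPM + 1) that difference was -0.011, so its direction depended on the scale. The median of all IDs there was -0.34.

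ENSRNOG00000012772, also listed as an Nrf2-induced enzyme, had few counts, between 37 and 110 in the 16 libraries. It measured 8.02, 9.03, 7.66 and 9.22 CPM in control and 8.85, 9.86, 8.65 and 13.4 CPM in DOCA, where the last value is from the library left out. These groups overlapped, with a log2 fold change of 0.10 ± 0.18 (edgeR adjusted p = 0.697). The finerenone libraries measured 5.76, 6.79, 5.23 and 5.61 CPM, below all control and all DOCA libraries. Compared with DOCA the log2 fold change fell by 0.64 ± 0.19 (edgeR adjusted p = 0.0217), and it was the 1 ID of the 8 called lower in this comparison, where 7.70% of all IDs were called lower. The adjusted p was 0.052 when DOCA replicate 1 was left out, 0.0806 when DOCA replicate 2 was and 0.0574 when finerenone replicate 3 was (edgeR), and the call was then lost. It was also lost with libraries of a shared first code number summed, at -0.62 (edgeR adjusted p = 0.109). The spironolactone libraries measured 9.40, 6.91, 6.86 and 8.32 CPM and overlapped with control and DOCA. On log2(TPM + 1), where the median of all IDs in DOCA compared with control was 0.42, this ID was 0.54 higher in DOCA and was called (limma adjusted p = 0.00241).

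The other 2 IDs listed as Nrf2-induced enzymes fell in DOCA kidneys. ENSRNOG00000006302 measured 3107, 1967, 3587 and 1201 CPM in control and 1034, 491, 308.0 and 170 CPM in DOCA, the last from the library left out. Every DOCA library lay below every control library. It fell by 2.01 ± 0.69 on the log2 scale (edgeR adjusted p = 0.0421), a larger size than for 95.4% of all IDs. The finerenone libraries measured 2005, 641, 913 and 731 CPM and the spironolactone libraries 1194, 235, 621 and 955 CPM. Both drug groups overlapped with DOCA. The log2 fold change against DOCA was 0.81 ± 0.66 for finerenone (edgeR adjusted p = 0.424) and 0.16 ± 0.69 for spironolactone (edgeR adjusted p = 1). Against control it was -1.20 ± 0.60 for finerenone (edgeR adjusted p = 0.294) and -1.85 ± 0.68 for spironolactone (edgeR adjusted p = 0.0599), and the tested spironolactone libraries all lay below control. The spironolactone difference was called lower with DESeq2 (adjusted p = 0.0136), limma-voom (adjusted p = 0.0368) and the replicate block in edgeR (adjusted p = 0.00598), and in edgeR fits without control replicate 4, finerenone replicate 1 or spironolactone replicate 1.

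ENSRNOG00000013409 followed the same pattern at a smaller size. It measured 708, 507, 832 and 316 CPM in control and 348, 208, 199 and 195 CPM in DOCA, the last from the library left out. The groups overlapped, because DOCA replicate 1 lay above control replicate 4. It fell by 1.23 ± 0.42 on the log2 scale (edgeR adjusted p = 0.0418). The finerenone libraries measured 508, 216, 282 and 240 CPM, and the spironolactone libraries 408, 220, 225 and 327 CPM. Both drug groups overlapped with DOCA, with log2 fold changes of 0.31 ± 0.41 for finerenone (edgeR adjusted p = 0.648) and 0.18 ± 0.44 for spironolactone (edgeR adjusted p = 1). The first was -0.12 on log2(TPM + 1), where the median of all IDs was -0.34. Against control the log2 fold change was -0.92 ± 0.38 for finerenone (edgeR adjusted p = 0.203), which was called with the replicate block (edgeR adjusted p = 0.0181). It was -1.05 ± 0.42 for spironolactone (edgeR adjusted p = 0.0766), which was called with DESeq2 (adjusted p = 0.0384), with all 16 libraries (edgeR adjusted p = 0.0341), with the replicate block (edgeR adjusted p = 0.00138) and without control replicate 4, finerenone replicate 1 or spironolactone replicate 1 (edgeR).

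The falls of both IDs in DOCA rested close to the threshold. Each call was lost in 7 of the 13 alternative analyses. Leaving out 1 library at a time kept the call in 6 of 14 fits for ENSRNOG00000006302 and in 7 of 14 for ENSRNOG00000013409. Both were lost without control replicate 1, 2 or 3, DOCA replicate 2 or 3, finerenone replicate 3 or spironolactone replicate 3, and the first also without finerenone replicate 4. The direction was lower in each of these fits, with adjusted p between 0.0284 and 0.135 for ENSRNOG00000006302 and between 0.0183 and 0.134 for ENSRNOG00000013409 (edgeR).

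Both IDs ranked the libraries of the same group in the same order. Ordered from high to low, the 4 control libraries were replicates 3, 1, 2 and 4 for both IDs, the DOCA libraries 1, 2, 3 and 4, the finerenone libraries 1, 3, 4 and 2, and the spironolactone libraries 1, 4, 3 and 2. They shared this order in 4 of 4 groups, which was noticed after the values were seen. Some places in it were close for ENSRNOG00000013409. It stood at 208, 199 and 195 CPM in DOCA replicates 2, 3 and 4, and at 225 and 220 CPM in spironolactone replicates 3 and 2. Among the other 27 pairs of the 8 IDs, 23 pairs shared the order in 0 groups, 2 pairs in 1 group and 2 pairs in 2 groups. The pairs with 2 shared groups were those of ENSRNOG00000008364 with these IDs. The spread within control was wide for both, with the highest library 2.99-fold and 2.63-fold above the lowest, whereas it was 1.08-fold for ENSRNOG00000008364.

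**Figure D2:**
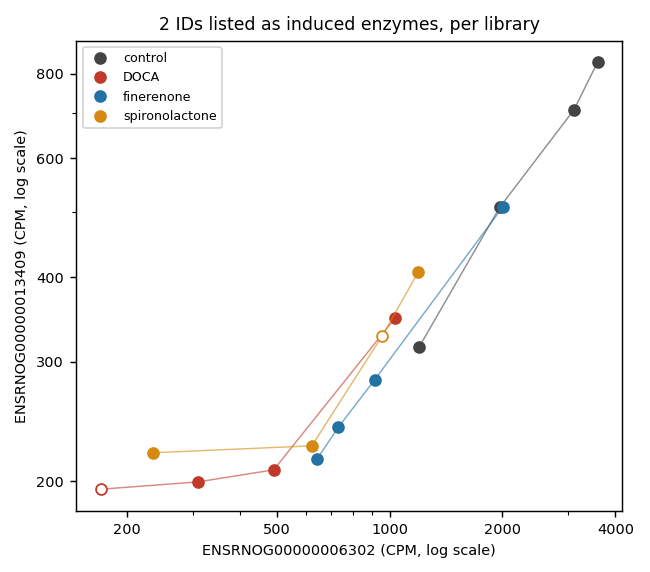
CPM of ENSRNOG00000006302 (horizontal, log scale) and ENSRNOG00000013409 (vertical, log scale) in the 16 libraries, with lines joining the libraries of a group and open points for the 2 libraries left out of the tests. Each line rises throughout, as the order of the libraries is the same for both IDs in 4 of 4 groups.

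ENSRNOG00000001548, listed as the regulator, moved little. It measured 118, 132, 106 and 102 CPM in control and 126, 141, 141 and 158 CPM in DOCA, the last from the library left out, and the groups overlapped. The log2 fold change in DOCA was 0.25 ± 0.10 with an adjusted p just under the threshold (edgeR adjusted p = 0.0498), and it was not called because its size was below 0.5. The finerenone libraries measured 137, 142, 120 and 132 CPM and the spironolactone libraries 119, 125, 111 and 118 CPM. The tested spironolactone libraries lay below the DOCA libraries, with a log2 fold change of -0.20 ± 0.10 (edgeR adjusted p = 1). In TPM the same ID was higher in DOCA by 0.75 on log2(TPM + 1) and was called (limma adjusted p = 1.44e-05). The median of all IDs there was 0.42. Its levels were 47.2 ± 4.55 TPM in control (n = 4) and 80.2 ± 3.83 TPM in DOCA (n = 3).

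ENSRNOG00000008364 and ENSRNOG00000002115, listed as catalase or dismutases, gave the steadiest contrast among the 8. ENSRNOG00000008364 measured 1392, 1307, 1407 and 1303 CPM in control and 689, 592, 513 and 321 CPM in DOCA, the last from the library left out. It fell by 1.18 ± 0.13 on the log2 scale (edgeR adjusted p = 2.9e-06). ENSRNOG00000002115 measured 1171, 937, 927 and 940.2 CPM in control and 433, 477, 417 and 375 CPM in DOCA. It fell by 1.17 ± 0.15 (edgeR adjusted p = 1.03e-05). Every DOCA library was below every control library for both. Both calls held in 13 of 13 alternative analyses and in 14 of 14 fits that left out 1 library.

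Under finerenone both IDs stood near the control level. ENSRNOG00000008364 measured 1363, 1153, 1172 and 965 CPM and ENSRNOG00000002115 881, 938, 899 and 1039 CPM in finerenone replicates 1 to 4. Compared with DOCA they rose by 0.96 ± 0.13 (edgeR adjusted p = 6.96e-05) and 1.09 ± 0.15 (edgeR adjusted p = 7.27e-05), with no overlap of libraries. Over all IDs 6.04% were called higher in this comparison. Against control the log2 fold changes were -0.22, with a 95% confidence interval from -0.46 to 0.03, and -0.08, with an interval from -0.36 to 0.20 (edgeR adjusted p = 0.306 and 0.791).

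Under spironolactone the mean CPM of both IDs lay between those of DOCA and control. ENSRNOG00000008364 measured 742, 564, 761 and 721 CPM and ENSRNOG00000002115 514, 416, 718 and 514 CPM, the last of each from the library left out. Against DOCA the log2 fold changes were 0.20, with a 95% confidence interval from -0.08 to 0.49, and 0.31, with an interval from -0.01 to 0.63 (edgeR adjusted p = 1 for both). Against control ENSRNOG00000008364 fell by 0.97 ± 0.13 (edgeR adjusted p = 2.05e-05) and ENSRNOG00000002115 fell by 0.86 ± 0.15 (edgeR adjusted p = 0.000205). On log2(TPM + 1) these were -0.46 and -0.43 and no longer called (limma adjusted p = 0.0139 and 0.0109). The median of all IDs there was 0.415. Spironolactone replicates 1, 3 and 4 lay above every DOCA library for both IDs, and replicate 2 lay within the DOCA range for both.

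ENSRNOG00000019048, the remaining ID of this set, showed the same order of groups within a smaller range. It measured 345, 342, 355 and 372 CPM in control, 267, 282, 228 and 273 CPM in DOCA, 320, 286, 358 and 314 CPM under finerenone, and 290, 269, 284 and 281 CPM under spironolactone. The DOCA libraries lay below the control and finerenone libraries. The log2 fold change was -0.45 ± 0.09 in DOCA compared with control (edgeR adjusted p = 0.00112) and 0.30 ± 0.09 in finerenone compared with DOCA (edgeR adjusted p = 0.0281), both below the size of 0.5 needed for a call. On log2(TPM + 1) these differences were 0.059 and -0.086, so the direction of this ID depended on the scale. The medians of all IDs on that scale were also shifted, to 0.42 and -0.34, and the ID lay below the first and above the second. Its levels were 166 ± 13.2 TPM in control and 173 ± 16.4 TPM in DOCA.

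**Figure D3:**
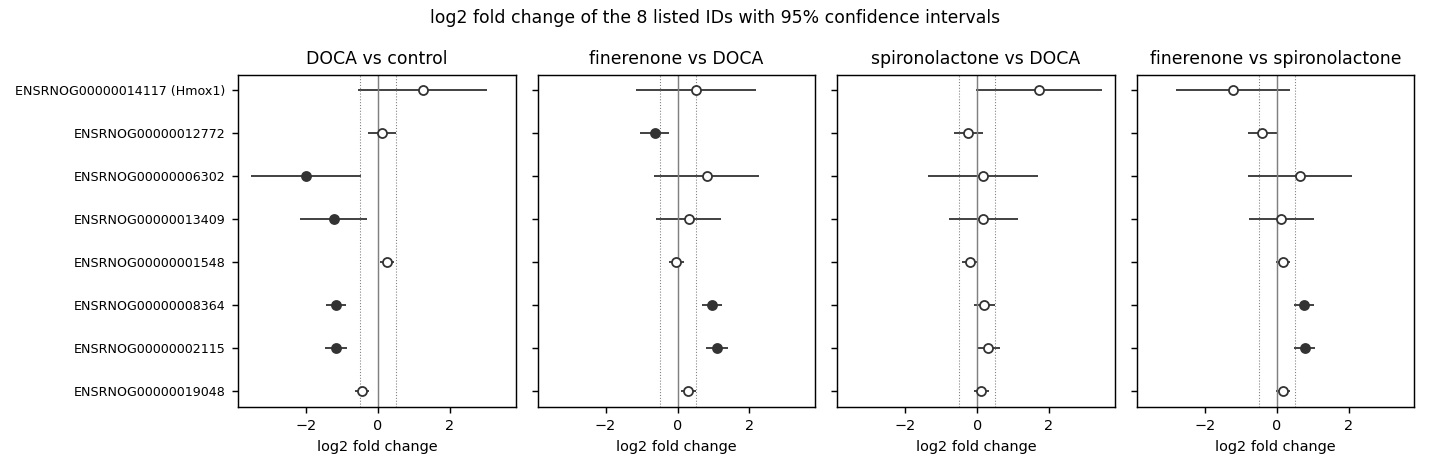
log2 fold change (horizontal axis) of the 8 IDs (rows) in 4 comparisons, with 95% confidence intervals from the edgeR fit; filled points are called and dotted lines mark 0.5 in both directions. In DOCA compared with control the 4 filled points lie below 0, and in finerenone compared with DOCA the IDs ENSRNOG00000008364 and ENSRNOG00000002115 lie near 1.

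The listed sets were then contrasted by the mean log2 CPM of their members in each library, as a description without a test. For the 3 IDs listed as catalase or dismutases it was 9.61 ± 0.06 in control (SD, n = 4), 8.67 ± 0.14 in DOCA (n = 3), 9.45 ± 0.06 under finerenone (n = 4) and 8.87 ± 0.22 under spironolactone (n = 3). The lowest finerenone library was at 9.40 and the highest spironolactone library at 9.07, so that on this scale all control and finerenone libraries lay above all DOCA and spironolactone libraries, the 2 left out included. The mean log2(TPM + 1) of the same IDs did not separate them. There spironolactone replicate 3, at 9.07, lay above control replicate 2 at 9.05 and finerenone replicates 2 and 4 at 8.91 and 9.01. In CPM, with no library left out, 36.0% of all IDs did not overlap between DOCA and control. This share was 25.3% for finerenone and DOCA, 35.8% for spironolactone and control and 23.3% for finerenone and spironolactone. In the study's clustering on all genes, finerenone kidneys grouped with control and DOCA with spironolactone. Whether the separation is particular to these 3 IDs was not tested. For the 4 IDs listed as Nrf2-induced enzymes the means were 6.73 ± 0.17, 6.26 ± 0.40, 6.47 ± 0.18 and 6.50 ± 0.29, and each group overlapped with each other group.

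The difference between the sets, induced minus the others, was -2.88 ± 0.15 in control, -2.41 ± 0.31 in DOCA, -2.98 ± 0.13 under finerenone and -2.37 ± 0.45 under spironolactone. It was 0.47 higher in DOCA than in control. Without Hmox1 alone the change in DOCA was -0.12, at -1.93 ± 0.34 against -1.81 ± 0.38 in control, and without ENSRNOG00000008364 alone it was 0.34. The direction of this contrast thus depended on Hmox1. Within the induced set, 2 IDs had a positive and 2 a negative log2 fold change in DOCA, from 1.25 for Hmox1 to -2.01 for ENSRNOG00000006302. Within the other set all 3 were negative, with a median of -1.17. Over all IDs the median absolute log2 fold change was 0.39.

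**Figure D4:**
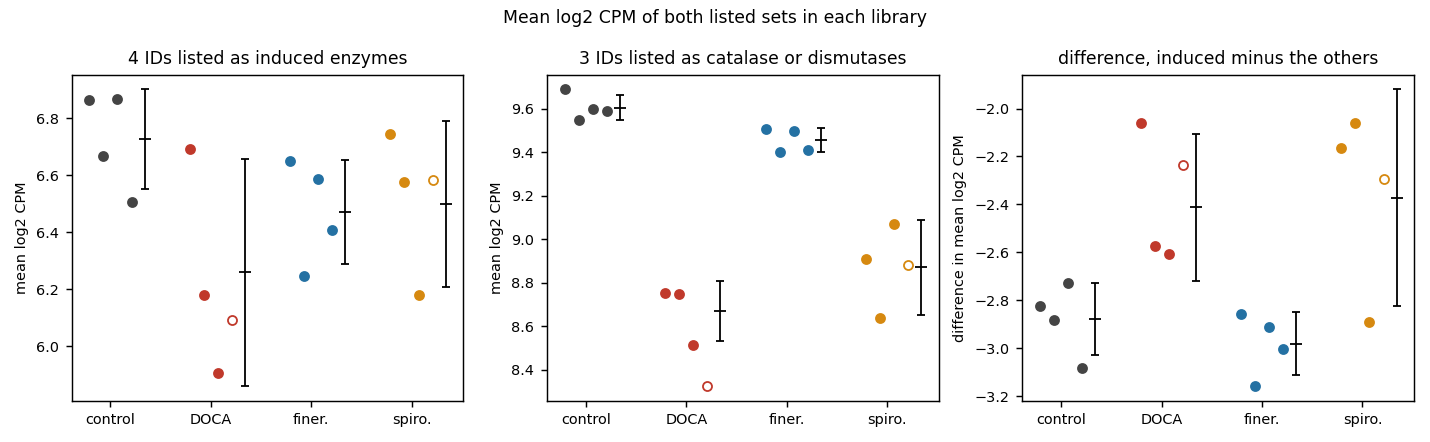
Mean log2 CPM (vertical axes) of the 4 IDs listed as induced enzymes, of the 3 IDs listed as catalase or dismutases, and their difference, per library in the 4 groups. Points are libraries, open where left out of the tests, and bars show the mean and SD of the tested libraries. On this CPM scale the middle panel separates control and finerenone, at 9.40 or above, from DOCA and spironolactone, at 9.07 or below. Of all single IDs, 23.3% did not overlap between finerenone and spironolactone with no library left out.

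Compared with control, 0 of the 8 IDs were called under finerenone and 3 under spironolactone. Over all IDs 4.18% and 24.6% were called. The tested libraries did not overlap for 1 of the 8 in the first comparison, ENSRNOG00000012772, against 11.8% of all IDs, and for 5 of the 8 in the second, against 39.9%. In the finerenone comparison 4 of the 8 had an unadjusted p under 0.05, and DESeq2 and limma-voom called 0, with 5.56% and 3.16% called over all IDs. The 3 IDs called under spironolactone were Hmox1, higher as were 14.7% of all IDs, and ENSRNOG00000008364 and ENSRNOG00000002115, lower as were 9.89%. DESeq2 called 5 here, 1 higher and 4 lower, and limma-voom called 3, all lower and without Hmox1. Over all IDs DESeq2 called 25.4% and limma-voom 25%. In TPM, on log2(TPM + 1), 2 were called, Hmox1 and ENSRNOG00000001548, both higher, and 0 lower, with 40.3% called over all IDs. In spironolactone compared with DOCA, 0 of the 8 had an unadjusted p under 0.05, and DESeq2 and limma-voom also called 0, where DESeq2 called 0.0752% of all IDs.

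The drugs were also compared directly, at their different doses. In finerenone compared with spironolactone 2 of the 8 IDs were called, both higher, against 11.4% called over all IDs and 4.59% called higher. The tested libraries did not overlap for 3 of the 8, against 28.0% of all IDs. ENSRNOG00000008364 rose by 0.76 ± 0.13 (edgeR adjusted p = 0.000724) and ENSRNOG00000002115 by 0.77 ± 0.14 (edgeR adjusted p = 0.00155), with no overlap of libraries. With libraries of a shared first code number summed, the call of ENSRNOG00000002115 was lost, at 0.68 (edgeR adjusted p = 0.066). In that setting 4.61% of all IDs were called. ENSRNOG00000019048 differed by 0.19, with a 95% confidence interval from -0.01 to 0.38 (edgeR adjusted p = 0.184). Among the IDs listed as induced enzymes 0 of 4 were called, with log2 fold changes between -1.21 for Hmox1 and 0.65 for ENSRNOG00000006302. The 95% confidence interval for Hmox1 ran from -2.80 to 0.37, and without spironolactone replicate 2 its log2 fold change was 0.54. On log2(TPM + 1) both calls for the IDs listed as catalase or dismutases were lost, at 0.36 and 0.47 (limma adjusted p = 0.0559 and 0.0101). There ENSRNOG00000012772, listed as an induced enzyme, was called lower, at -0.66 (limma adjusted p = 0.00146). It was also called lower with library size alone, at -0.62 (edgeR adjusted p = 0.0208). Over all IDs 27.9% and 18% were called in these settings, with medians of -0.34 and -0.26.

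The IDs most like Hmox1 and ENSRNOG00000008364 in pattern were found by Pearson's r of log2 CPM over the 16 libraries, among 12432 IDs with a mean log2 CPM of at least 1. These r include the differences between groups and are given as a description. For Hmox1 they were ENSRNOG00000024661 (r = 0.92) and ENSRNOG00000018295 (r = 0.83). ENSRNOG00000024661 measured between 45.2 and 49.8 CPM in control, between 53.6 and 61.6 CPM in DOCA and 70.6 CPM in spironolactone replicate 2, its highest library. Without that library r was 0.88 and it ranked 4th, and the first was ENSRNOG00000014615 (r = 0.91). For ENSRNOG00000008364 the most alike were ENSRNOG00000004027 and ENSRNOG00000018215 (r = 0.99 for both). ENSRNOG00000018215 measured between 1591 and 1669 CPM in control, between 266 and 635 CPM in DOCA, between 1342 and 1551 CPM under finerenone and between 602 and 902 CPM under spironolactone. Its control and finerenone libraries lay above all DOCA and spironolactone libraries, as for ENSRNOG00000008364, a likeness for which it was chosen.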

How the data were processed

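The 16 rat whole-kidney libraries of polyadenylated RNA were analysed, and each library was placed by its label. Per the study's methods and the submitters' processing notes, the authors trimmed reads with Trim Galore 0.4.5, aligned them with STAR 2.7.3a (rat rn6, Rnor_6.0) and estimated gene abundance in RSEM. The annotation was not given in the sources used here. The authors deposited RSEM estimated counts, unscaled for depth or length, of which 3.14% were not whole. These expected counts were rounded. The authors also deposited TPM, scaled for length and to one total per library.

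The members and lists were chosen with earlier results of these data known. All 8 members are named, by ID alone where no symbol could be tied. The RefSeq table (GRCr8, 47357 genes) held 0 Ensembl IDs. Hmox1 was tied by its TPM in 7 libraries, a match that gave exactly 1 ID for 1996 of 1997 listed genes. Lists of other pathway genes and of cell type markers could not be tied and were not analysed here. For likeness, the 2 IDs with the highest r were named.

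Tests used edgeR 4.0.16 in R 4.3.3, with the robust quasi-likelihood F test and TMM, in 1 fit of 4 groups over IDs with a count above 4 in at least 3 of 14 libraries. Both libraries left out were identified as those that the study's supporting values do not cover. The standard error was the log2 fold change divided by the square root of F. log2 CPM used a prior count of 2. The fit was tested on simulated data. Alternatives used other normalizations and filters, DESeq2 1.42.0, limma 3.58.1 with voom weights or on log2 TPM with a pseudocount of 1 or 0.1, the full 16 libraries, 2 groups only, a replicate block, libraries with a shared first code number summed, and each library left out. An alternative over all 16 libraries except spironolactone replicate 2, and set contrasts without Hmox1 or ENSRNOG00000008364 alone, were added after seeing the data. A floor of 3 counts was between 0.247 and 0.485 CPM and covers counting error only. All 24 pairs of libraries within groups differed by more than sampling noise, with a chi-square per gene of at least 4.71.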

Additional observations from a re-analysis of the deposited data

Results flagged for a closer look

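Within each group of 4 libraries, the CPM of each of the 8 IDs was checked for a library far from the other 3, by the gap to its nearest neighbour as a share of the range. Of 32 such groups 3 were marked, where chance marks about 1 in 20. Hmox1 in spironolactone replicate 2 stood at 223 CPM, with a gap of 0.98 of the range. ENSRNOG00000013409 in DOCA replicate 1 stood at 348 CPM, with a gap of 0.914. ENSRNOG00000002115 in control replicate 1 stood at 1171 CPM, with a gap of 0.946. Each was the highest library of its group.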

How the results depend on the processing

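Of 1344 repeats of 48 log2 fold changes (8 IDs in 6 comparisons), 1229 kept their direction and their side of the threshold, 45 lost a call, 30 gained one and 40 changed sign. In DOCA compared with control the number of IDs called was 4, and it was 2 with upper quartile scaling or with no filter, and between 2 and 5 when each library was left out, with 2 without control replicate 1, 2 or 3, DOCA replicate 3, finerenone replicate 3 or spironolactone replicate 3. In finerenone compared with DOCA it was 3, and between 2 and 3 without each library. In finerenone compared with control it was 0, and it was 1 with the replicate block, 1 over all 16 libraries except spironolactone replicate 2, and between 0 and 1 without each library. In spironolactone compared with control it was 3, and it was 5 with DESeq2, 5 with the replicate block, and between 2 and 5 without each library, with 2 without spironolactone replicate 2 and 5 without control replicate 4, finerenone replicate 1 or spironolactone replicate 1. In finerenone compared with spironolactone it was 2, and it was 1 on log2(TPM + 1), 1 on log2(TPM + 0.1) and 1 with libraries of a shared code summed. On both TPM scales the ID called was ENSRNOG00000012772, which was lower. The cause of these changes was not tested. The correlation of deviations of same-numbered libraries of different groups lay between -0.07 and 0.14, above 0.1 in 4 of 19 pairs. For libraries with different numbers it lay between -0.17 and 0.15. These values do not settle whether the replicate numbers pair the libraries. Apart from the counts given above, the replicate block moved no count of calls by over 1.5 times. The difference between the listed sets changed from 0.47 to -0.12 without Hmox1 and -0.24 without Hmox1 and ENSRNOG00000008364 in DOCA compared with control, from -0.10 to -0.74 and -0.78 in finerenone compared with control, and from 0.51 to -0.33 and -0.45 in spironolactone compared with control. Without ENSRNOG00000008364 alone it was 0.34, -0.14 and 0.38.

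Scaling moved the median log2 fold change of all IDs in DOCA compared with control from 0.02 (TMM) to 0.12 (upper quartile), 0.37 (library size alone), 0.42 on log2(TPM + 1) and 0.53 on log2(TPM + 0.1). On log2(TPM + 1) the median was -0.34 in finerenone compared with DOCA and -0.34 in finerenone compared with spironolactone. Compared with control it was 0.0833 for finerenone and 0.415 for spironolactone. The signs that changed belonged to log2 fold changes that were not called, with values on log2(TPM + 1) and log2(TPM + 0.1) in that order. For ENSRNOG00000019048 they were 0.0593 and 0.0596 in DOCA compared with control, -0.0856 and -0.0861 in finerenone compared with DOCA, 0.18 and 0.18 in spironolactone compared with control, and -0.21 and -0.21 in finerenone compared with spironolactone, where library size alone gave -0.0332. For ENSRNOG00000013409 they were -0.12 and -0.12 in finerenone compared with DOCA, and -0.28 and -0.28 in finerenone compared with spironolactone, where library size alone gave -0.0855 and all 16 libraries except spironolactone replicate 2 gave -0.0388. For Hmox1 they were -0.0110 and -0.0179 in finerenone compared with DOCA. For ENSRNOG00000012772 in spironolactone compared with control they were 0.31 and 0.36, with 0.18 for library size alone. For ENSRNOG00000001548 in finerenone compared with spironolactone they were -0.22 and -0.22, with -0.0562 for library size alone. For ENSRNOG00000002115 in finerenone compared with control they were 0.0419 and 0.0419, with 0.0109 for library size alone. Over all 16 libraries except spironolactone replicate 2, Hmox1 was at -0.19 in spironolactone compared with DOCA and at 0.47 in finerenone compared with spironolactone.

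Leaving out each library changed the sign of 9 of the 48 values. The ranges were -0.0329 to 0.61 for ENSRNOG00000013409 and -0.0849 to 0.0356 for ENSRNOG00000001548 in finerenone compared with DOCA; -0.0281 to 2.16 for Hmox1, -0.51 to 0.77 for ENSRNOG00000006302 and -0.18 to 0.48 for ENSRNOG00000013409 in spironolactone compared with DOCA; -0.13 to 0.00687 for ENSRNOG00000002115 in finerenone compared with control; -0.00591 to 0.12 for ENSRNOG00000001548 in spironolactone compared with control; and -1.65 to 0.54 for Hmox1 and -0.21 to 0.48 for ENSRNOG00000013409 in finerenone compared with spironolactone. Depth limited ENSRNOG00000012772 most, with 37 counts in its lowest library.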
